A study of Mus musculus with 3 samples.

Results

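NUR77 peaks were examined in a 1 Mb window of mouse chromosome 17, from 35 to 36 Mb in genome build mm9, that holds the genes Tnf, Lta, Ltb and H2-D1. Members were selected by position: a peak or region belonged to the window if its centre lay inside it. The window itself was picked with earlier results of these peak lists known, so its peak counts and scores are given as a description, with no test. It held 14 of the 6777 peaks of replicate 1, 58 of the 37307 of replicate 2 and 22 of the 8862 of replicate 3. Peaks of different replicates that overlapped by at least 1 bp were merged into regions, which gave 61 regions in the window of 38463 in all. The samples were 3 ChIP-seq replicates of 1 group, RAW264.7 macrophages (an established mouse line) carrying the pINDUCER20b-HA-NUR77 transgene, each grown in 6 dishes. Expression was induced for 18 hours with doxycycline (Dox) at 1 µg/mL in all 3. An antibody to the HA tag was used, so the peaks describe tagged, overexpressed NUR77 from an inducible construct in 1 cell line; no uninduced cells, untagged cells or input were analysed here. Nothing in the labels says that the replicates were prepared on separate days.

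Tnf, Lta and Ltb encode 3 ligands of the tumour necrosis factor superfamily. TNF is made by macrophages within a short time of an inflammatory stimulus and acts through the receptors TNFR1 and TNFR2. Lymphotoxin alpha, the product of Lta, forms a secreted homotrimer that uses the same receptors, and together with lymphotoxin beta, the product of Ltb, it forms a membrane complex that acts through the lymphotoxin beta receptor. H2-D1 encodes a classical class I molecule of the major histocompatibility complex, which presents peptides to CD8 T cells. NUR77, encoded by Nr4a1, is an orphan nuclear receptor that binds the NBRE element as a monomer and has been studied as a brake on inflammatory gene expression in macrophages. The study behind these samples asked how NUR77 limits the inflammatory response of macrophages, as its title states.

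The position of Tnf is known here as near 35.34 Mb of mm9, which leaves an uncertainty of about 5 kb in each distance given. The only gene table used belongs to another build, GRCm38, and served for the order of genes alone. In that order the protein-coding neighbours of Tnf are Ltb on one side and Lta on the other, followed by Lst1, Aif1, Prrc2a and Bag6 beyond Ltb and by Nfkbil1, Atp6v1g2 and Ddx39b beyond Lta. Between Tnf and H2-D1 lie 4 protein-coding genes, and H2-Q1, another class I gene, follows H2-D1. Class I genes resemble each other in sequence, some of them closely. How reads that match several copies were treated is not given in the sources used here. As no gene table of mm9 was used, peaks are given by position and by distance from Tnf. None is assigned to Lta, Ltb or H2-D1.

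Because NUR77 is known for a defined DNA element, the 250 bases before the start of each of the 4 genes were searched in the RefSeq promoters of GRCm38.p6, where all 4 genes matched. The motifs were the NBRE (AAAGGTCA), the core element of nuclear receptors (AGGTCA, which lies inside the NBRE), AP-1 (TGANTCA) and the PU.1 core (GAGGAAGT). The kappaB motif of NF-kB was searched as GGGA and TCC with any 3 bases between, and in a strict form with C, T and T there. Other forms of kappaB were not searched, so a promoter without a match here may still hold a kappaB site. All motifs were searched on both strands. The promoters of Tnf, Ltb and H2-D1 are shown because Tnf is the gene from which distances are counted and the other two are those that held a motif. They are from GRCm38.p6, at chr17:35202008-35202257 (minus strand), chr17:35194257-35194506 (plus strand) and chr17:35262844-35263093 (plus strand), 5′ to 3′, with motif matches in capitals. These positions cannot be compared with the mm9 peaks.
Tnf: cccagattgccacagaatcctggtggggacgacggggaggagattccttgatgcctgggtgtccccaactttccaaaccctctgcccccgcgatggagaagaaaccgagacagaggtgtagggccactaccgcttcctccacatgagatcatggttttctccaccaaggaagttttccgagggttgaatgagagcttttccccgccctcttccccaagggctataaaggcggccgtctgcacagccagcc
Ltb: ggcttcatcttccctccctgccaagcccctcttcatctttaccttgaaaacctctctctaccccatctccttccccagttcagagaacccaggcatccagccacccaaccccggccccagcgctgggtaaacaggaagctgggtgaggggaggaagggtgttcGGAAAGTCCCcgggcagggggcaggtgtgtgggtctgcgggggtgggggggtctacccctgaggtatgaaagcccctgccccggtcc
H2-D1: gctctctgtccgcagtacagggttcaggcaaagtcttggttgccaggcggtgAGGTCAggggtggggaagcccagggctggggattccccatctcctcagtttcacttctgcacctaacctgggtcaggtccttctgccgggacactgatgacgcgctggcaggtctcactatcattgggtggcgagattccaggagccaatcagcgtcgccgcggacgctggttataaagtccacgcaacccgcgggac

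The capitals mark the strict kappaB motif in Ltb, on the minus strand 87 to 78 bases before the start, and the core element in H2-D1, on the plus strand 198 to 193 bases before the start. None of these motifs was found in the 250 bases of Tnf or Lta. The NBRE was found in none of the 4 promoters and in 1.34% of the 32851 promoters of the table. The core element was in 14.0% of them, the kappaB motif in 3.86%, its strict form in 0.14%, AP-1 in 6.75% and the PU.1 core in 2.44%. Of 26 genes listed for the TNF and lymphotoxin pathway (ligands, receptors, adaptors, kinases, NF-kB factors and their inhibitors), 22 had a promoter in the table. None of these 22 held an NBRE or a core element, against 1.55% and 15.8% of all genes. Ltb, Nfkb2, Nfkbia and Map3k7, 4 of the 22, held a kappaB motif, against 4.41% of all genes. Ikbkg, Nfkb2, Tnfaip3 and Tnfsf14, also 4 of the 22, held an AP-1 motif, against 7.82% of all genes. A match or its absence concerns these letters in this stretch alone, and whether a peak covers any of the promoters was not tested.

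The window was the richest on chromosome 17 in regions seen in at least 2 replicates. It held 24 of them, of 9755 in the series, and no other of the 96 windows of this size on the chromosome reached that number. Over the nuclear genome 7 of 2665 windows held more, and the densest held 31. The window's density was 6.53 times the genome mean of 3.67 regions per Mb. Counted per list, its density was 5.49 times the genome mean in replicate 1, 4.13 times in replicate 2 and 6.59 times in replicate 3, a mean of 5.40 ± 1.23 (SD, n = 3). All 3 replicates thus had more peaks here than the genome mean, and in each list no window of chromosome 17 held more peaks. One other window of the chromosome equalled it in replicate 1. Over the nuclear genome 26, 8 and 10 of the 2665 windows held more peaks in replicates 1, 2 and 3. Regions with all 3 replicates numbered 9, and there 1 other window of chromosome 17 held more, with 12. Over the nuclear genome 45 of the 2665 windows held more of these, up to 19.

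**Figure D1:**
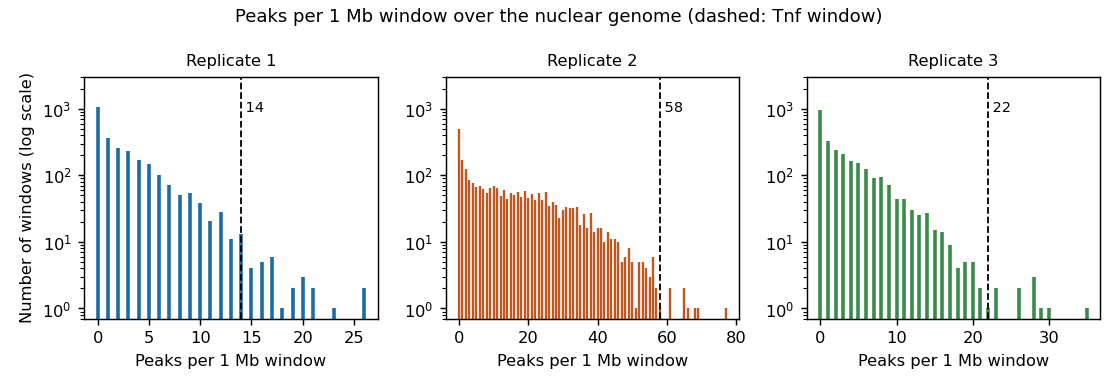
Number of 1 Mb windows of the nuclear genome (y axis, log scale) by the number of peaks they hold (x axis), for each replicate. The dashed line marks the window that holds Tnf, with 14, 58 and 22 peaks, on the sparse right side of each distribution.

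In replicates 1 and 3 the share of window peaks found in another replicate was close to that of the whole lists, and in replicate 2 it was higher. All 14 replicate 1 peaks overlapped a peak of another replicate, against 94.3% over its whole list, and 21 of the 22 replicate 3 peaks did, against 93.2%. Of the 58 replicate 2 peaks 22 did, or 37.9% against 25.7%. At the level of merged regions, 24 of 61 held at least 2 replicates, 39.3% against 25.4% in the series. All 3 replicates were present in 9 of these 24 regions, 37.5% against 48.4%. The authors' deposited table lists 42 intervals in the window, which joined into 24 regions. The replicate names in that table matched the lists for 27 of the 42 intervals as written and for all 42 with the names of replicates 2 and 3 exchanged, so replicates are numbered here by their sample titles.

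Within 50 kb of Tnf, 6 regions were seen in 2 replicates and none in all 3. The 3 lists held 4, 10 and 5 peaks in this stretch. Regions with all 3 replicates were thus 0 of 6 here, against 48.4% of the regions of at least 2 replicates in the series. The 6 regions are neighbours from the same 3 libraries and are not independent, so no interval is given. Whether this stretch differs from the series in that share was not tested. The region nearest to Tnf was chr17:35335149-35335698, with its centre 4.58 kb below the stated Tnf position. It was the best-ranked of the window's 24 regions and place 275 of the 9755 in the series by mean rank. That mean covers only the lists with a peak in the region, so a list without a peak does not lower the place. The deposited peak score, whose scale is not stated, was 172 in replicate 1, the highest of that list's 14 peaks in the window, and above or equal to 94.7% of the whole list. In replicate 2 it was 959, a value shared by 549 peaks, and above or equal to 99.8% of the list. In replicate 3 there was no peak in the region, and the nearest peak of that list lay 8679 bp away. The region closest to Tnf was thus strong in 2 replicates and without a peak in the other.

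The remaining regions near Tnf were also split between pairs of replicates. At chr17:35326220-35326580, 13.6 kb below Tnf, replicate 1 scored 80.5 (percentile 78.4) and replicate 3 scored 168 (percentile 91.4). At chr17:35356620-35357130, 16.9 kb above Tnf, replicate 1 scored 84.3 (percentile 80.1) and replicate 3 scored 127 (percentile 86.0). Replicate 2, which has by far the longest list, had no peak in either of these regions. Elsewhere in the window no region joined replicates 1 and 3 without replicate 2, and in the series 169 of the 9755 regions did, or 1.73%. At chr17:35319499-35320148, 20.2 kb below Tnf, replicate 1 scored 63.2 (percentile 68.5) and replicate 2 scored 333 (percentile 89.4). The other two were weaker in replicate 3 and lacked replicate 1. At chr17:35311449-35311848 replicate 2 scored 101 (percentile 59.4) and replicate 3 scored 25.8 (percentile 8.96). At chr17:35378449-35378848 they scored 136 (percentile 69.4) and 50.4 (percentile 50.0).

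**Figure D2:**
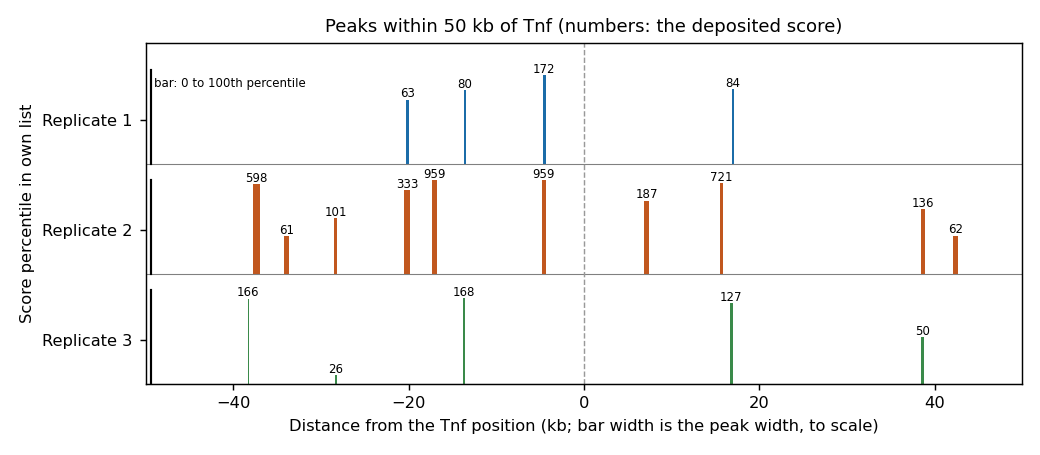
Peaks within 50 kb of the Tnf position in each replicate, with distance from Tnf in kb on the x axis, bar width equal to peak width, bar height equal to the score's percentile in its own list, and the deposited score above each bar. The dashed line is the Tnf position, known to about 5 kb. The bar 4.58 kb below it is present in replicates 1 and 2 and absent in replicate 3.

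Strong peaks of different replicates lay close to each other near Tnf without overlapping. The replicate 2 peak at chr17:35355499-35355848, with a score of 721 (percentile 97.0), ended 771 bp before the region of replicates 1 and 3 at 16.9 kb. The replicate 2 peak at chr17:35302299-35302998, with a score of 598 (percentile 95.8), began 479 bp after the replicate 3 peak at chr17:35301620-35301819, with a score of 166 (percentile 91.1). This was the sole replicate 3 peak of the window without an overlap. These were the only neighbouring regions of the window that held different replicates and lay within 1000 bp of each other, and both pairs lay within 50 kb of Tnf. Another strong replicate 2 peak, at chr17:35322699-35323248 with the tied score of 959, lay 2971 bp from the region of replicates 1 and 3 at 13.6 kb below Tnf. In the series, 62 of the 169 regions of replicates 1 and 3 alone (36.7%) had a replicate 2 peak within 1000 bp, and 148 (87.6%) within 5000 bp. With peaks up to 1000 bp apart counted as shared, a setting chosen after seeing the data, 7 regions near Tnf held at least 2 replicates and 1 held all 3. In the series under this rule, 4829 of 9863 regions of at least 2 replicates held all 3, or 49.0%.

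By the 1 bp overlap rule, peaks of replicate 2 alone had a higher median score percentile near Tnf than in the rest of the window. Near Tnf there were 6, with score percentiles from 40.6 to 99.8 and a median of 87.1, and 3 of the 6 were above the 90th percentile. In the rest of the window there were 30, with percentiles from 2.14 to 90.6 and a median of 50.7, and 1 of the 30 was above the 90th. Over the whole list 1.85% of the 27717 peaks of replicate 2 alone were. Of the 3 near Tnf, those at percentiles 97.0 and 95.8 lay 771 and 479 bp from regions of other replicates. With peaks up to 1000 bp apart counted as shared, these would not be alone. The shares elsewhere were not counted under that setting. Besides the peaks already given, the one within 20 kb of Tnf was chr17:35346849-35347398, 7.12 kb above it, with a score of 187 (percentile 78.3).

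The deposited lists do not hold every peak that was numbered. Peak names carry a running number that follows position along each chromosome in all 3 lists, and 39.1%, 19.7% and 38.8% of the numbers are absent from the lists of replicates 1, 2 and 3. Across the window the absent share was 60.0% in replicate 1 (21 of 35 numbers), 19.4% in replicate 2 (14 of 72) and 33.3% in replicate 3 (11 of 33). For the region nearest to Tnf, replicate 3 has 2 absent numbers in the stretch between its neighbouring peaks, chr17:35326470-35356619. For the region at 16.9 kb above Tnf, replicate 2 has 2 absent numbers between its neighbouring peaks, chr17:35355849-35378448. For the region at 13.6 kb below Tnf, replicate 2 has none between its neighbouring peaks. Counted over all regions near Tnf, the replicate without a peak had an absent number in that stretch in 5 of 6 cases. In the rest of the window this held for 8 of 9. These cases are not separate, as several regions lie in the same stretch, such as chr17:35144931-35319730 in replicate 1. The share over all such stretches of the lists was not counted. The position of an absent number within its stretch is unknown, so whether it belonged to the region was not tested.

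By median, peaks near Tnf ranked higher in their lists than those in the rest of the window taken as a whole. The median score percentile of the 4 peaks near Tnf in replicate 1 was 79.2, against 67.7 for the other 10. In replicate 2 it was 83.8 for 10 peaks against 67.4 for 48, and in replicate 3 it was 86.0 for 5 peaks against 69.3 for 17. The difference was 11.5, 16.4 and 16.7 percentile points, a mean of 14.9 ± 2.93 (SD, n = 3), with the peaks near Tnf higher in 3 of 3 replicates. The ranges overlapped in every list, as peaks near Tnf went down to the 68.5th, 40.6th and 8.96th percentile, and peaks elsewhere reached the 83.5th, 99.8th and 93.9th. The rest was uneven. In the window's last 100 kb the 10 replicate 2 peaks stood at 8.53, 49.6, 69.2, 84.4, 84.9, 86.0, 90.6, 90.9, 91.4 and 96.4. High ranks in that list were thus not particular to Tnf. The 5 replicate 1 peaks there stood at 30.8, 64.7, 71.9, 82.9 and 83.5. The 6 of replicate 3 stood at 26.7, 48.1, 66.1, 78.6, 78.7 and 84.2. Peaks of 1 list share their library, and their values are given without a test.

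**Figure D3:**
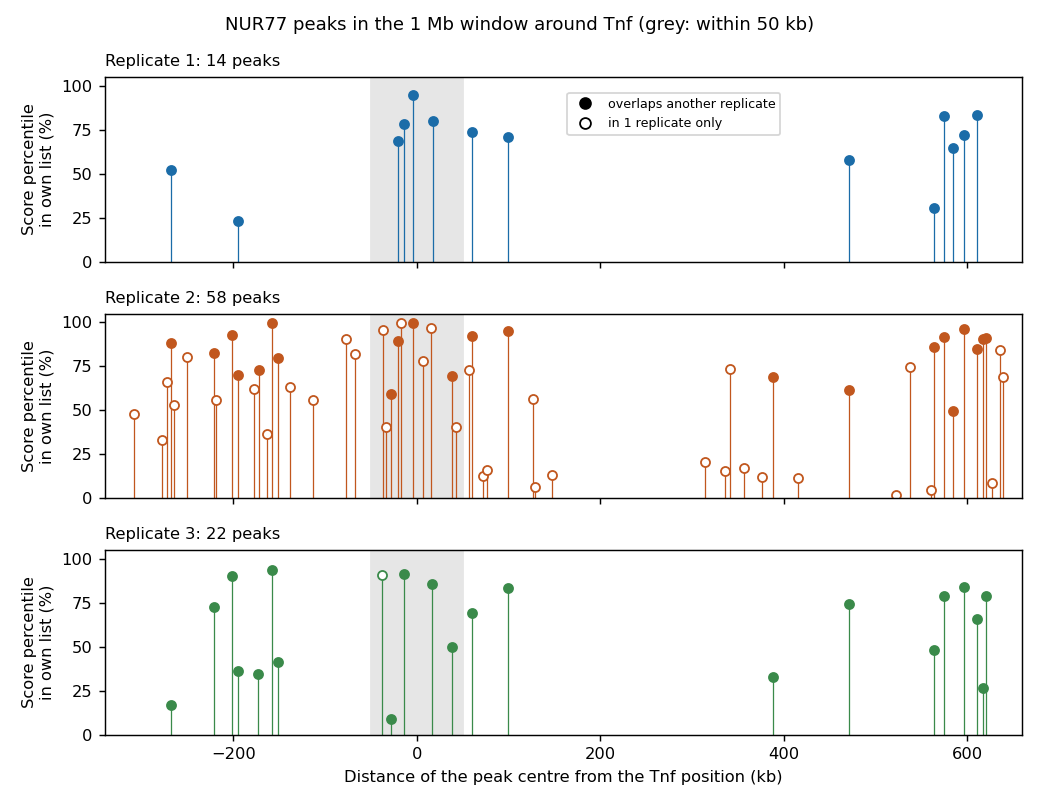
Score percentile of each peak in its own list (y axis, percent) against the distance of its centre from Tnf in kb (x axis), by replicate, with filled points for peaks that overlap another replicate and the grey band for 50 kb around Tnf. In replicate 1 the highest point of the window, at 94.7, lies in the grey band, and the 3 open points of replicate 2 above 90.6 are in the band as well.

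Regions were also denser near Tnf than over the remaining 900 kb taken as a whole. The 6 regions of at least 2 replicates in 100 kb compare with 18 in 900 kb, a 3.00-fold higher density. Per list the density of peaks was 3.60, 1.88 and 2.65 times that of the rest in replicates 1, 2 and 3, a mean of 2.71 ± 0.864 (SD, n = 3). The regions came from different pairs of lists, and without replicate 1 the ratio for regions was 1.06, with 2 regions near Tnf. The rest was uneven, so this ratio is not particular to Tnf. In bins of 100 kb, that from 35.3 to 35.4 Mb, which covers Tnf, held 7 such regions, the last bin of the window also held 7, and the bin from 35.1 to 35.2 Mb held 6. The bins next to that of Tnf held 0 below and 1 above. The bin from 35.5 to 35.6 Mb, also counted in the 900 kb, held no region of any list.

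Away from Tnf, 4 of the window's 9 regions with all 3 replicates lay in its last 100 kb. A group of 4 regions with neighbours within 13 kb of each other spanned chr17:35903299-35936548, with all 3 replicates in 3 of them, and a group of 3 followed at chr17:35950199-35960398, with all 3 replicates in 1. Of the former, chr17:35935849-35936548 had scores of 68.0, 654 and 118 in replicates 1, 2 and 3, and chr17:35913899-35914498 had 92.3, 384 and 99.1. The region at chr17:35903299-35903948 was weaker, with 33.9, 271 and 48.8. In the latter group, chr17:35950199-35950798 had 93.9, 257 and 70.5, while chr17:35959749-35960398 had no replicate 1 peak and scored 369 and 98.9 in replicates 2 and 3. Near Tnf the group of 4 regions at chr17:35311449-35335698 held none with all 3 replicates. The first regions with all 3 replicates on the side of rising coordinates were chr17:35399499-35400148, 59.8 kb from Tnf, with scores of 72.1, 422 and 76.5, and chr17:35438549-35439148, 98.8 kb from Tnf, with 66.5, 538 and 115. Among regions of at least 2 replicates, the former is also the first outside the 50 kb limit, and the last inside it is the one 38.6 kb from Tnf.

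**Figure D4:**
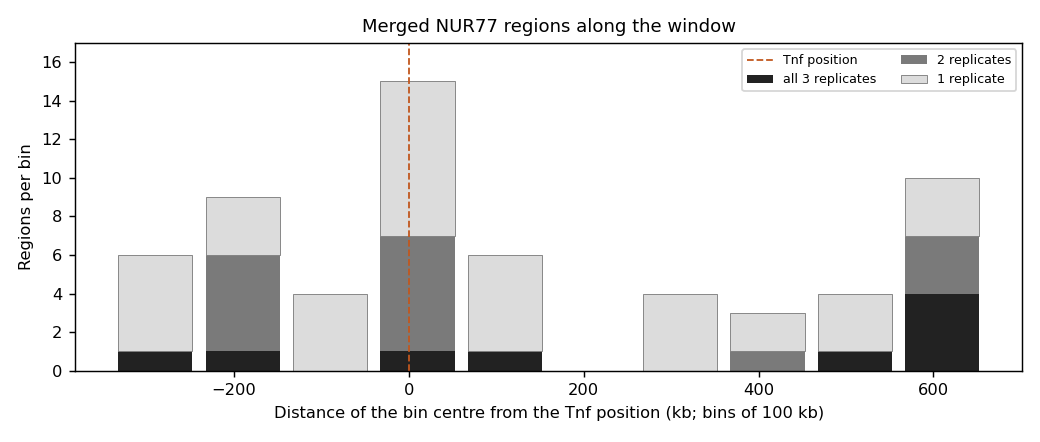
Merged regions per 100 kb bin (y axis) against the distance of the bin centre from Tnf in kb (x axis), stacked by the number of replicates they hold. The bin that covers Tnf has 15 regions, 7 of them in at least 2 replicates and 1 in all 3, and the last bin has 10, 7 and 4.

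On the other side of Tnf, several strong regions lacked replicate 1. The strongest was chr17:35181399-35182598, 158 kb from Tnf, 1200 bp wide, with the tied score of 959 in replicate 2 and 198 in replicate 3, the highest score of replicate 3 in the window. Next was chr17:35137749-35138248, with 436 and 157. The region at chr17:35118620-35119098 had 226 and 83.1. Replicate 1 had no peak over the 174.8 kb from 35144931 to 35319730, a stretch with 8 absent peak numbers. Between chr17:35181399-35182598 and the region nearest to Tnf the order of strength differed little: both held the tied replicate 2 score and they took the first 2 places of the 24 by mean rank and by mean percentile. By mean rank the regions at 13.6 kb below and 16.9 kb above Tnf took places 3 and 4, but this mean is lower for regions without the long list of replicate 2, and by mean percentile they were at places 4 and 9.

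Long stretches of the window had few or no peaks. No peak of any replicate lay between 35487827 and 35653698, a stretch of 165.9 kb, and no region of at least 2 replicates lay between 35439149 and 35727348, a stretch of 288.2 kb. Such regions were also absent over 122.4 kb between 35189049 and 35311448, up to the group near Tnf. Replicates 2 and 3 had peaks in that stretch that did not overlap each other. Whether reads could be placed in the stretches without peaks is unknown, so they do not show that NUR77 was not bound there. At the borders of the window, the first region of at least 2 replicates inside was chr17:35071649-35072298 and the last before it was chr17:34898349-34898948. The last inside was chr17:35959749-35960398 and the first beyond was chr17:36007299-36007998.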

How the data were processed

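The authors deposited 1 list of called peaks per replicate, with mm9 coordinates per the submitters' processing notes, peak names of the form MACS gives, and a peak score per the file's values, and a table of intervals covered by peaks of at least 2 replicates. For the aligner, caller version, threshold and use of control reads, no source used here gives a statement. Deposited scores were used only to rank peaks within a list, as the percentage of its peaks at or below a score. The window, members, distances, lists and motifs were chosen with earlier results of these data known.

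Peaks overlapping by at least 1 bp were merged into regions. Near Tnf meant a centre within 50 kb. Named are all regions of at least 2 replicates near Tnf, peaks within 20 kb of it, the 10 best by mean rank elsewhere and groups of 3 or more regions. No test was applied, as there is 1 group and the window was chosen with results known; SDs are over 3 replicates. Window counts used the mm9 chromosome lengths of GenomeInfoDb 1.38.1. Read counts are not part of the lists, so depth is unknown. Alternatives were the overlap rule, the distance, list length, the higher-scored 50% of peaks, the reference chromosomes and leaving out each replicate. No gene was assigned to peaks and no motif was searched in them, as this needs an mm9 annotation or genome, not used here. The merging code was run on simulated peaks of equal width, where all 2000 planted regions were recovered. Shared peaks there always overlapped and separate ones never came close, so this recovery checks the code alone. It cannot say how the overlap rule treats peaks that narrowly miss each other. Software was pandas 2.3.3 with numpy 2.4.6 and scipy 1.17.1, and matplotlib 3.10.9 for plots, under Python 3.11.15.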

Additional observations from a re-analysis of the deposited data

How the results depend on the processing

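The alternatives gave 37 values within the set limits (1.5 times for a count of regions, 1 SD over replicates otherwise) and 14 outside them. For the mean number of peaks per list in the window, 31.3, that SD was 23.4, over lists of unequal length. A limit so wide held all of its alternatives. For densities of regions the SD was that of the peak densities per list. The tally is therefore no measure of how stable the results are. The number of regions in at least 2 replicates ranged from 11 (without replicate 2) to 19 when a replicate was left out, against 24, and near Tnf it was 2 without each of the replicates, against 6, since fewer lists can share. Near Tnf it was 3 with a limit of 20 kb. Regions in all 3 replicates near Tnf, none by the main rule, were 2 with a limit of 100 kb and 1 with peaks up to 1000 bp apart counted as shared, and none under the other 5 settings; this count, and the 1000 bp setting, were chosen after seeing the data. The density of regions near Tnf over the rest, 3.00, was 2.00 with a limit of 100 kb, and 1.06 (without replicate 1) to 2.00 when a replicate was left out. The gain in score percentile near Tnf, 14.9 points, was 21.2 with a limit of 20 kb. The density of the window over the genome was 5.12 to 6.24 when a replicate was left out, against 6.53. The cause was not tested where none is named. No paired analysis was possible because the study has a single group. As the depth of the libraries is unknown, the absence of a call does not show that NUR77 was not bound.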
